A study of Nematostella vectensis with 16 samples.

Results

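The set described here holds 64 gene models of the starlet sea anemone, Nematostella vectensis, whose transcripts were more abundant after mercury (Hg) and near the control level after copper (Cu). They were chosen by measured values from 27273 gene models, with each level given as CPM, a gene's count divided by the library's total and multiplied by 1000000. A member had a control mean of at least 1 CPM, an Hg mean at least 2.5 times the control mean, a Cu mean between 0.8 and 1.2 times the control mean, and every Hg library above every other library. The difference between Hg and control and the closeness of Cu to control are therefore properties of the choice and not findings. What the choice did not use is the behaviour of these genes in cadmium (Cd) and zinc (Zn), except that both had to stay below Hg. The comparisons of Cd and Zn with control still rest on the controls that the choice used.

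The study exposed pools of anemones of 2 to 4 months to one metal chloride each (HgCl2, CuCl2, CdCl2 or ZnCl2) at 100 µg/L for 24 h. Each metal had 3 pools of 5 animals, and 4 untreated pools served as controls. All animals were raised at 18 °C in artificial seawater of 12.5 ppt and in the dark, and no strain, sex or genotype is given. The labels name no dissected tissue or sorted cells, so the RNA is read as that of the animals' mixed cells, in which a difference in RNA per cell and a difference in the number of cells of a type cannot be told apart.

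Mercury has no known role as a nutrient and binds tightly to the thiol groups of cysteine, in proteins and in glutathione. Copper is a cofactor of enzymes of respiration and antioxidant defence, and in excess it takes part in redox reactions and also binds thiols. Cells of many animals answer both metals with chelating and antioxidant proteins and with chaperones. Cadmium shares the affinity for thiols, whereas zinc is an essential structural and catalytic ion. The files do not pair the identifiers of these gene models with names, and none matched the annotation table at hand, so members are named by identifier alone, and no role, position or sequence is given for any of them.

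Library totals ran from 5494659 to 8113825 counts, both extremes in the Hg group. Of the 16276 tested genes, 198 formed a set that varies between pools of one group. This set put controls 1 and 2, Hg 3, Cu 3, Cd 1 and Zn 3 apart from the other 10 libraries. Of the 64 members 0 belong to it, and at so small a share of genes nothing is read from that count. Of the 16436 gene models with a control mean of at least 1 CPM, 481 had an Hg mean of at least 2.5 times control. In 404 of these every Hg library lay above all 13 other libraries, and the Cu limits kept 64. All 64 passed the filter on low counts and entered the tests, which ran over 16276 genes. CPM values are not corrected for transcript length, so they compare one gene between libraries and not one gene with another.

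The members were mostly genes with moderate counts. The median control mean was 30.9 CPM (range 1.31 to 414), against 11.9 CPM over all genes with at least 1 CPM in controls. Of the 64, 20 had a control mean under 10 CPM, 27 had 10 to 50 CPM, 8 had 50 to 100 CPM and 9 had 100 CPM or more. The fewest counts in a control library were 3, for v1g213134, and 5 members had under 10 counts in at least 1 control library. The ratio of Hg mean to control mean had a median of 2.97 and ran from 2.51 to 7.02. For 34 members it lay between 2.5 and 3, for 21 between 3 and 4, for 4 between 4 and 5 and for 5 above 5.

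**Figure D1:**
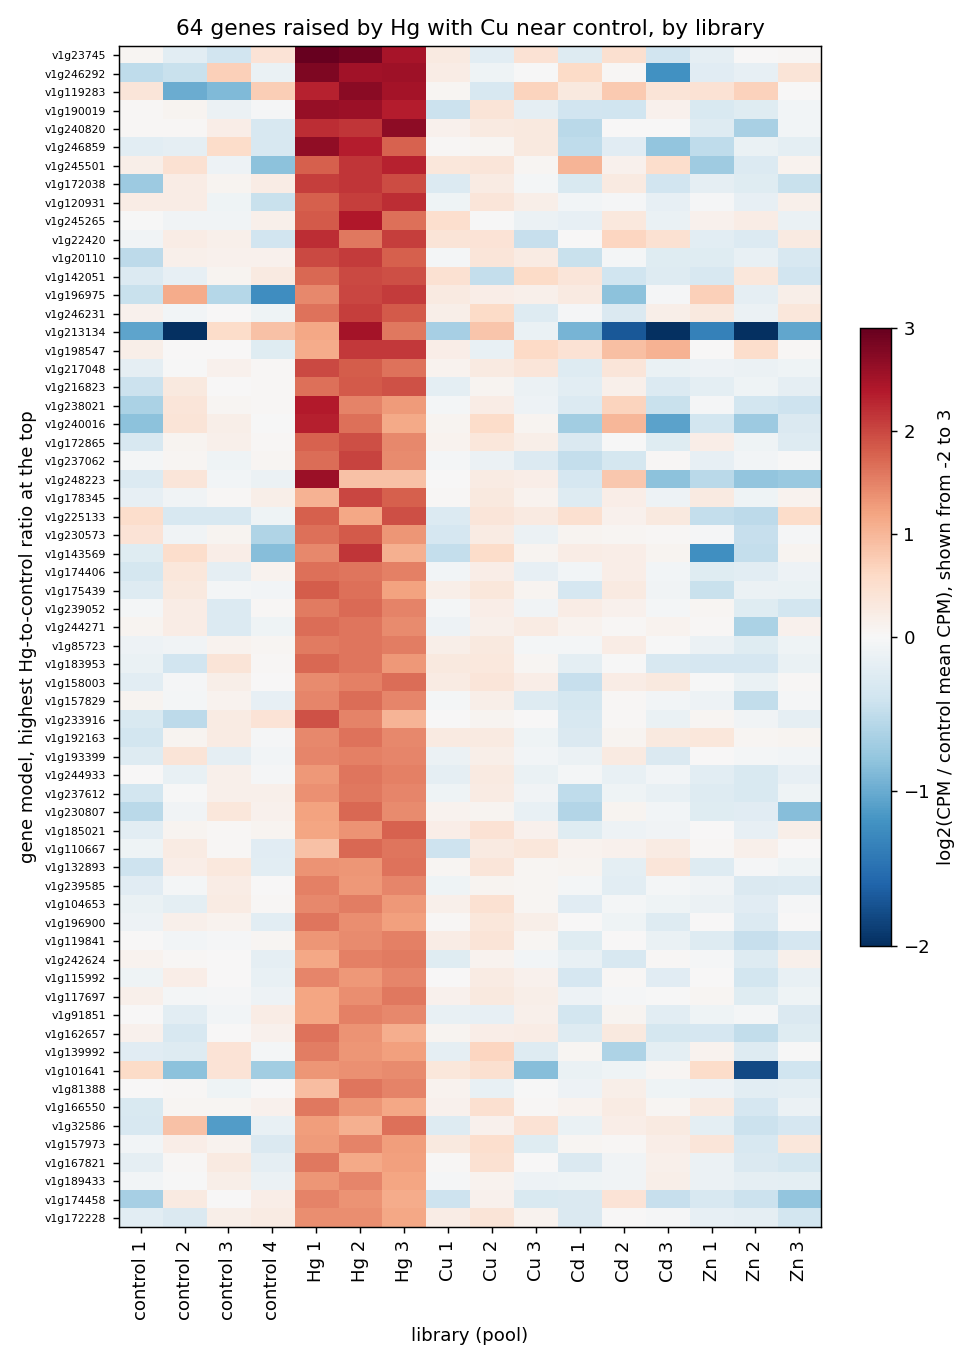
Level of each of the 64 members (rows, highest Hg-to-control ratio at the top) in each of the 16 libraries (columns), as log2 of CPM over the gene's control mean CPM, with colours limited to -2 to 3. The 3 Hg columns are red in every row, as the choice requires, while v1g213134 is blue in the Cd and Zn columns and in controls 1 and 2.

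Together the members took about 0.3% of all counts in controls and more than 1% in every Hg library. Their summed level was 3010, 3552, 3359 and 3208 CPM in controls 1 to 4, and 10659, 11182 and 10788 CPM in Hg 1 to 3. The control mean was 3282 ± 229 CPM (SD, n = 4). The Hg mean was 10876 ± 272 CPM (SD, n = 3), or 3.31 times as high. The sums were 3192, 3943 and 3275 CPM in Cu 1 to 3, with a mean of 3470 ± 412 CPM (SD, n = 3). Cu 2 alone lay above all 4 controls, and Cu 1 and Cu 3 lay within the range of the controls. In Cd the sums were 2846, 3354 and 3156 CPM (mean 3119 ± 256, SD, n = 3), and in Zn they were 3072, 2810 and 3117 CPM (mean 3000.0 ± 166, SD, n = 3). Cd 1 and Zn 2 lay below every control, and the other Cd and Zn pools lay within the control range. The 5 members with the most counts in Hg made up 41.4% of the sum in controls and 45.4% in Hg.

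**Figure D2:**
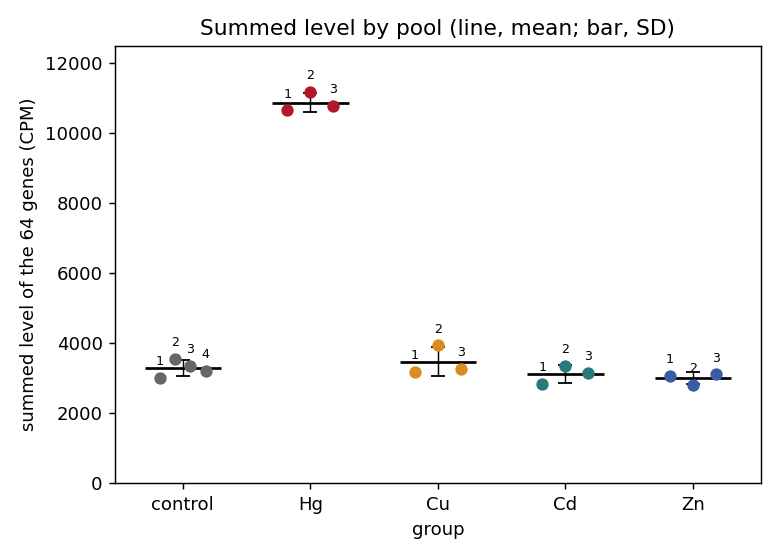
Summed level of the 64 members in CPM (vertical axis, from 0) in each pool, by group; digits are pool numbers, lines are group means and bars are SD. The 3 Hg pools lie between 10659 and 11182 CPM and the other 13 pools between 2810 and 3943 CPM, with Cu 2 the highest of these 13.

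The ratio to control was highest for v1g23745. It measured 3.40, 2.81, 2.5 and 4.35 CPM in controls 1 to 4 and 26.4, 24.1 and 18.2 CPM in Hg 1 to 3. The Cu pools had 3.93, 2.81 and 4.44 CPM, the Cd pools 2.73, 4.52 and 2.5 CPM, and the Zn pools 2.88, 3.27 and 3.32 CPM. All 13 libraries outside Hg lay between 2.5 and 4.52 CPM, so that the lowest Hg pool was about 4 times the highest of them (ratio 4.03). That was the widest gap in the set. The fitted log2 fold change in Hg was 2.78 ± 0.22 (SE), given as a description.

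v1g246292 came next, with a ratio of 6.18. Its controls had 2.35, 2.48, 5.54 and 3.08 CPM and its Hg pools 23.5, 19.1 and 19.7 CPM. It had 3.93, 3.16 and 3.33 CPM in Cu, 4.97, 3.47 and 1.45 CPM in Cd and 2.88, 3.02 and 4.38 CPM in Zn. The Cu pools were closer to each other than the controls or the Cd pools were. For v1g119283, with a ratio of 5.73, the controls split into 1.70 and 2.18 CPM (controls 1 and 4) and 0.661 and 0.715 CPM (controls 2 and 3). Its Hg pools had 6.55, 8.62 and 7.39 CPM, the second lowest Hg mean in the set, and its Zn ratio of 1.33 was the highest in the set. This ratio rests on a control mean of 1.31 ± 0.75 CPM (SD, n = 4), and the Zn pools, at 1.76, 2.14 and 1.33 CPM, lay within the range of the controls.

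The members with the most counts in Hg differed in how even they were in the other groups. v1g190019 had 282, 294, 255 and 272 CPM in controls and 1681, 1630 and 1421 CPM in Hg, a ratio of 5.72. Its Cu pools spread more than its controls, at 204, 360 and 242 CPM. Cu 1 and Cu 3 lay below every control and Cu 2 above every control, so that the Cu ratio of 0.974 is a mean over pools on both sides of control. The fitted log2 fold change in Cu was -0.05 ± 0.16 (SE), and without Cu 2 it was -0.28. The Cd pools had 211, 209 and 304 CPM and the Zn pools 224, 232 and 266 CPM.

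v1g216823 had 308, 505, 417 and 427 CPM in controls and 1299, 1473 and 1568 CPM in Hg, a ratio of 3.49. It had 363, 441 and 384 CPM in Cu, 358, 461 and 342 CPM in Cd and 361, 391 and 366 CPM in Zn. Every library outside Hg lay within the range of the controls. v1g242624 had 295, 279, 278 and 241 CPM in controls and 608, 775 and 801 CPM in Hg, a ratio of 2.66. Of its Cu pools, at 230, 292 and 262 CPM, Cu 1 lay below every control and the other 2 lay within the control range. v1g240820 stood at 103, 103, 115 and 79.9 CPM in controls and 468, 447 and 643 CPM in Hg, a ratio of 5.18, with 109, 120 and 123 CPM in Cu.

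Other members were close to even between Hg pools. v1g193399 had the smallest spread between Hg pools, at 188, 195 and 190 CPM, with 57.3, 89.6, 60.6 and 65.6 CPM in controls. Its Cu ratio was among the 3 nearest to 1, with 62.7, 77.2 and 65.7 CPM in the Cu pools, and its Zn pools had 68.3, 66.5 and 65.9 CPM. v1g85723 had 13.5, 13.7, 15.5 and 15 CPM in controls, 42.4, 44.0 and 41.5 CPM in Hg and 16.4, 17.7 and 14.0 CPM in Cu. v1g189433 and v1g174406 also had Cu ratios close to 1 (0.999 and 0.998), with 95% intervals of the Cu log2 fold change of -0.21 to 0.20 and -0.24 to 0.24.

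The Hg level was uneven in a few members. v1g248223 had the largest coefficient of variation between Hg pools (74.2%), with 309 CPM in Hg 1 against 95.3 and 95.1 CPM in Hg 2 and Hg 3. Its controls had 43.2, 67.1, 50.2 and 47.9 CPM, and Cd 2, at 90.6 CPM, came within a factor of 1.05 of the lowest Hg pool. Its fitted log2 fold change in Hg was 1.65 ± 0.42 (SE) and fell to 0.88 without Hg 1, where it was no longer called (edgeR adjusted p = 0.0635). v1g213134 had 5.46, 13.9 and 7.27 CPM in Hg against 1.18, 0.496, 3.57 and 4.53 CPM in controls 1 to 4. Its log2 fold change of 1.90 ± 0.55 (SE) became 1.43 without Hg 2 (edgeR adjusted p = 0.103). v1g101641, with the lowest Hg mean, had 4.37, 4.53 and 4.68 CPM in Hg against 2.62, 0.991, 2.32 and 1.09 CPM in controls. Its log2 fold change of 1.31 ± 0.42 (SE) was not called without control 2, without control 4 or without any 1 Hg library, with values of 1.1 to 1.35.

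Across the set the lowest Hg library was a median of 1.94 times the highest of the 13 other libraries. For 30 members this factor was 2 or more, for 30 between 1.2 and 2 and for 4 below 1.2, with the smallest value of 1.04 in v1g198547. The highest of the 13 other libraries was a Cu pool in 31 members, a control in 18, a Cd pool in 12 and a Zn pool in 3. Cu 2 alone held it in 25 members. The shares over all tested genes were not counted, so nothing is read from these counts. All 64 members were called higher in Hg by the edgeR quasi-likelihood test with Benjamini-Hochberg adjustment at 0.05, where 15.0% of all tested genes were called higher. The choice used this contrast, and nothing is read from that count. The log2 fold changes had a median of 1.55 (range 1.31 to 2.78), and the median over all tested genes was -0.05. In the authors' deposited table for Hg 63 of the 64 had an adjusted p under 0.05, and v1g248223 did not (0.307). In the authors' deposited tables for Cu and Zn 0 members did, and the adjusted column for Cd holds values above 1 and was not read at a threshold.

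The Cu limits cut through a continuous range of Cu ratios. Among the 404 genes that met the Hg conditions 1 had a Cu ratio below 0.8, 64 lay within the limits and 339 lay above 1.2. Of those 404 genes, 1 lay from 0.8 to 0.9, 11 from 0.9 to 1, 17 from 1 to 1.1, 35 from 1.1 to 1.2, 117 from 1.2 to 1.5 and 126 from 1.5 to 2. The members thus form the lower edge of a distribution whose bulk lay higher. Within the limits that chose them, the Cu ratio was above 1 in 52 of the 64 (median 1.11, range 0.887 to 1.2), and nothing is read from that count.

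**Figure D3:**
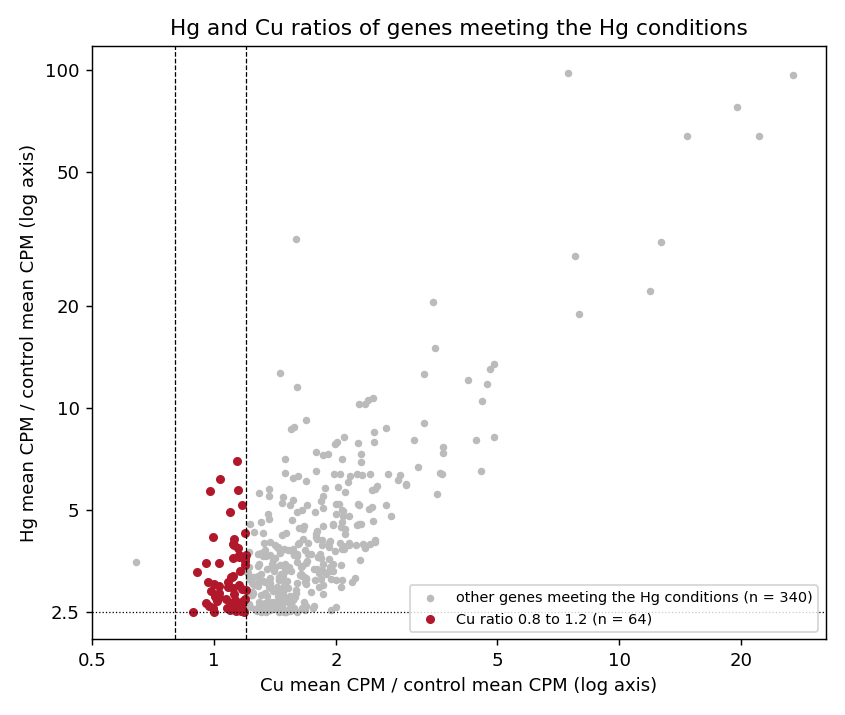
Ratio of Hg mean to control mean (vertical, log axis) against ratio of Cu mean to control mean (horizontal, log axis) for the 404 genes that met the Hg conditions. Red points are the 64 members, grey points the other 340, dashed lines the Cu limits and the dotted line the Hg limit; 1 gene lies to the left of the dashed lines and 339 to the right.

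A Cu mean near control did not mean that a Cu change was shown to be absent. By edgeR 0 of the 64 members were called higher or lower in Cu, where 3.0% of tested genes were called higher and 1.2% lower, and the choice used this contrast too. DESeq2 also called 0 and gave no adjusted p for 3 members. The log2 fold changes in Cu had a median of 0.15 (range -0.16 to 0.29), with 53 above 0 and 11 below. The median upper bound of the 95% interval was 1.42-fold. In 19 members the interval reached beyond 1.5-fold higher and in 11 beyond 1.5-fold lower. The highest upper bound was 2.80-fold, in v1g213134. In 4 members the interval lay above 0 and the unadjusted p was under 0.05 (v1g119841, v1g172228, v1g104653 and v1g217048, named after their values were seen), and the lowest edgeR adjusted p was 0.249.

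In v1g119841, v1g158003 and v1g185021 all 3 Cu pools lay above all 4 controls, while 7.1% of tested genes did so. In 0 members did all 3 lie below, against 5.77% of tested genes. The Cu limits chose the members, so nothing is read from these counts. v1g158003 had 6.54, 7.43, 8.58 and 7.61 CPM in controls and 8.89, 9.65 and 8.61 CPM in Cu, and it sat nearest the upper Cu limit. v1g142051 sat next to it with 4.45, 4.79, 5.72 and 6.53 CPM in controls and 7.35, 3.86 and 8.06 CPM in Cu, where Cu 2 was the lowest pool and the other 2 were above all controls. At the lower end, v1g174458 had 42.7, 81.0, 68.6 and 78.1 CPM in controls and 50.8, 74.4 and 54.7 CPM in Cu (ratio 0.887). v1g237062 had 38.5, 41.5, 37.3 and 41.0 CPM in controls and 38.5, 36.5 and 32.6 CPM in Cu (ratio 0.907).

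The Cu pools were not alike in these genes, which is given as a description since the Cu values chose the members. Cu 2 was the highest of the 3 Cu pools in 45 members, Cu 1 in 7 and Cu 3 in 12. Without Cu 2 the median log2 fold change in Cu was 0.09, with 44 members above 0. Without Cu 1 it was 0.20, with 56 above 0, and without Cu 3 it was 0.11, with 49 above 0.

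Genes just inside and just outside the Hg limit and the upper Cu limit differed little. The 3 members nearest the Hg limit were v1g172228, v1g174458 and v1g189433, with Hg ratios that all round to 2.51, and v1g237860 and v1g26574 missed it with 2.49 each. v1g142051 and v1g158003 had Cu ratios of 1.196 and 1.2, and v1g213202 lay just above the limit at 1.205 (3.42 CPM in Cu against 2.84 CPM in controls). The 1 gene below the lower Cu limit, v1g98567, was not close to it, with a Cu ratio of 0.640 against 0.887 in the lowest member. It had means of 1.03 CPM in controls, 3.61 CPM in Hg and 0.658 CPM in Cu.

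Set beside the 339 genes with the same Hg conditions and a Cu ratio above 1.2, the members had more counts in controls and lower Hg ratios. The median control mean was 30.9 CPM in members and 13.1 CPM in the 339 genes. The median Hg ratio was 2.97 in members, with a maximum of 7.02, and 3.72 in the 339 genes, with a maximum of 97.8. The median Cd ratio was 0.970 in members and 1.03 in the others, and the median Zn ratio was 0.902 and 0.961. These medians describe 2 lists separated by their Cu ratio, and their differences were not tested. All the ratios share the same 4 controls.

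The comparisons of Cd and of Zn with control asked whether the members moved with either of the other metals. Both use the controls that helped to choose the members, so they are not independent of the choice. No member was called in either. In Cd the log2 fold changes had a median of -0.07 (range -1.57 to 0.78), with 21 above 0 and 43 below, and over all tested genes the median was -0.001 with 49.8% above 0. In the 10 libraries low in the pool-variable genes, a setting added after seeing the data, the median in Cd was 0.02, with 34 members above 0 and 30 below. By edgeR 0 members were called higher in Cd (0.0184% of tested genes were) and 0 lower (0.0% of tested genes). At an unadjusted p under 0.05 there were 3 members, v1g198547 on the higher side and v1g237612 and v1g213134 on the lower (named after their values were seen), against 7.03% of tested genes. That count was 5 without control 1 or control 2, 6 without Cd 2 and 8 with controls 3 and 4 alone, the last added after seeing the data. DESeq2 called 0, but it gave no adjusted p for 16 members, v1g198547 and v1g213134 among them. The interval reached beyond 1.5-fold higher in 13 members and beyond 1.5-fold lower in 11, so changes of that size were not excluded in these.

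In Zn the median log2 fold change was -0.12 (range -1.54 to 0.41), with 12 members above 0 and 52 below, against a median of -0.006 and 48.8% above 0 over all tested genes. By edgeR 0 members were called higher (0.00614% of tested genes were) and 0 lower (0.0% of tested genes). At an unadjusted p under 0.05 there were 3 members, v1g119841, v1g174458 and v1g213134, all on the lower side (named after their values were seen), against 7.03% of tested genes, and DESeq2 called 0. That count was 7 without control 1, 6 without control 2, 10 with controls 3 and 4 alone and 1 without control 3. It was also 1 without Hg 3, Cu 3 or Cd 1, which enter the shared estimate of the spread. The interval reached beyond 1.5-fold lower in 19 members and beyond 1.5-fold higher in 6. Zn 2 was the lowest Zn pool in 34 members, and the share of all tested genes was not counted. Without it the median was -0.07, with 23 members above 0, and without Zn 1 or Zn 3 it was -0.13 or -0.15.

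**Figure D4:**
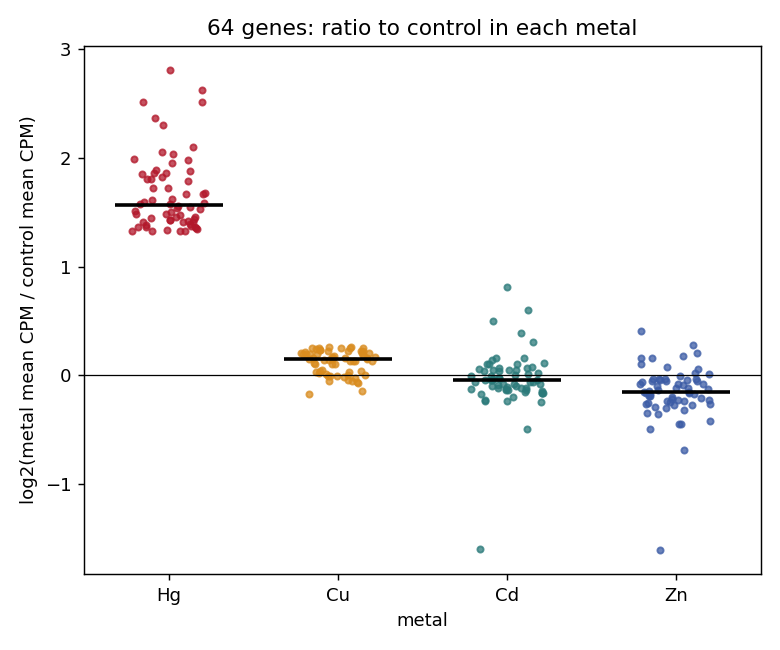
Log2 ratio of each metal's mean CPM to the control mean CPM (vertical) for the 64 members in Hg, Cu, Cd and Zn, each point a gene and each black line the median. The Hg and Cu columns are bounded by the choice of members; 11 members have a Zn ratio above 1 and 24 a Cd ratio above 1, and v1g213134 is the lowest point in both of these columns.

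Libraries of Zn and control did not overlap in 5 members, all with Zn below control, where 3.08% of tested genes did so. These were v1g119841, v1g189433, v1g244933, v1g248223 and v1g81388, listed after their values were seen. In 0 members did all Zn pools lie above all controls, against 2.69% of tested genes. In Cd 1 member lay above all controls, against 3.97%, and 0 lay below, against 1.7%.

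v1g119841 had the lowest unadjusted p in Zn and little spread between controls. It measured 38.3, 36.5, 37.5 and 39.5 CPM in controls and 94.6, 101 and 108 CPM in Hg. The Cu pools, at 44.4, 49.5 and 39.7 CPM, all lay above the controls, and the Zn pools, at 31.7, 27.7 and 30.2 CPM, all lay below them. Its log2 fold change was 0.22 ± 0.10 (SE) in Cu and -0.33 ± 0.10 (SE) in Zn (edgeR adjusted p = 0.249 and 0.567). The Cd pools had 31.9, 38.0 and 34.5 CPM, with a log2 fold change of -0.15 ± 0.10 (SE).

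v1g198547 had the highest Cd ratio, 1.76. Its controls had 7.06, 6.28, 6.25 and 5.26 CPM and its Cd pools 8.34, 11.6 and 12.9 CPM, and the groups did not overlap. Cu and Zn gave 7.18, 5.62 and 9.44 CPM and 6.24, 8.92 and 6.38 CPM. Among the Hg pools Hg 1, at 13.5 CPM, lay close to Cd 3, and the other 2 had 27.0 CPM each. The log2 fold change in Cd was 0.78 ± 0.27 (SE, edgeR adjusted p = 0.62). It was between 0.65 and 0.91 when any 1 Cd or control library was left out.

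v1g213134 had the lowest ratio in both Cd (0.332) and Zn (0.328). It measured 1.28, 0.754 and 0.395 CPM in Cd and 0.960, 0.251 and 1.2 CPM in Zn. Controls 3 and 4 had 3.57 and 4.53 CPM, whereas controls 1 and 2, at 1.18 and 0.496 CPM, lay within the range of the Cd and Zn pools. The log2 fold changes were -1.57 ± 0.72 (SE) in Cd and -1.54 ± 0.72 (SE) in Zn (edgeR adjusted p = 0.706 and 0.704). With controls 1 and 2 alone, a setting added after seeing the data, the value in Cd was -0.21, and with controls 3 and 4 alone it was -2.29.

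The Zn ratio was highest after v1g119283 in v1g196975, at 1.22. Its Zn pools had 3.52, 1.89 and 2.39 CPM and its controls 1.57, 4.63, 1.43 and 0.906 CPM, so that control 2 lay above every Zn pool. v1g246859, with the lowest Cd ratio after v1g213134 (0.712), had 2.75, 2.81, 4.65 and 2.54 CPM in controls and 2.25, 2.71 and 1.84 CPM in Cd, a log2 fold change of -0.51 ± 0.27 (SE).

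The direct comparison of Cd with Zn contrasts the levels of these groups and takes no control, Hg or Cu level. Those other libraries still enter the filter, the scaling and the shared estimate of the spread. The choice of members bounded Cd and Zn only from above, by the Hg libraries. By edgeR 0 members were called, and 0.0% of tested genes were. The median log2 difference between Cd and Zn was 0.06, with 38 members higher in Cd and 26 higher in Zn, against 51.3% of all tested genes higher in Cd. Without Cd 2 the median was -0.003, with 32 members on each side, and without Zn 2 it was 0.02, with 35 higher in Cd and 29 higher in Zn. At an unadjusted p under 0.05 there was 1 member, v1g245501, against 3.68% of tested genes, and DESeq2 called 0. That count was 0 without Zn 1, 2 without Zn 2 or Zn 3, and 3 without Cd 3 or Hg 1. v1g245501 had 11.7, 6.33 and 8.29 CPM in Cd and 3.52, 4.78 and 6.24 CPM in Zn, a log2 difference of 0.80 ± 0.31 (SE, edgeR adjusted p = 1). All 3 Cd pools lay above all 3 Zn pools. Its controls had 6.54, 7.93, 5.36 and 3.26 CPM and its Hg pools 20.02, 25.7 and 28.7 CPM.

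**Figure D5:**
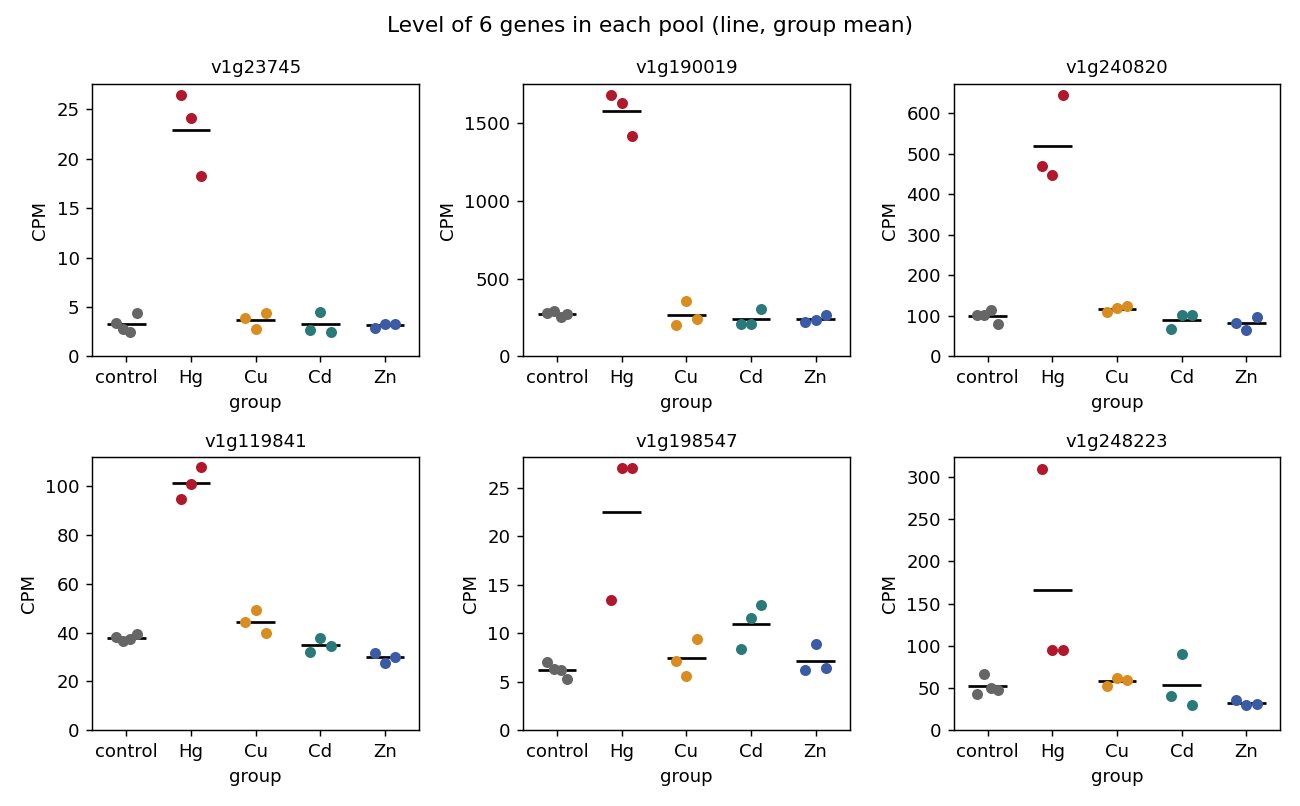
Level in CPM (vertical axis, from 0, own scale per panel) of 6 members in each pool, by group, with lines at the group means. In v1g119841 the Cu pools lie above and the Zn pools below the 4 controls, in v1g198547 the Cd pools lie above them, and in v1g248223 Hg 1 stands at 309 CPM while Hg 2 and Hg 3 are near 95.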

How the data were processed

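Total RNA of pooled anemones was sequenced after TruSeq mRNA library preparation, per the labels' protocols. STAR, Partek and DESeq are named, without their roles, in the submitters' processing notes. For the genome build, nothing is given in the sources used here. The authors deposited 1 table per metal with raw counts per gene model, identical control counts in each, their fold change as a ratio, and adjusted p-values. The deposited adjusted p-value column for Cd holds values above 1 and was treated as a score.

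CPM is the count over the column total. Tests used R 4.3.3 and edgeR 4.0.16: default filterByExpr, TMM scaling, 1 robust quasi-likelihood fit of all 16 libraries with a term per group, Benjamini-Hochberg adjustment over 16276 genes and a threshold of 0.05. SE is the log2 fold change over the square root of F, and intervals are 95%. The fit was tested on simulated counts with known changes. It called 65.9% of 2-fold changes in Hg, 57.7% in Cu, 70.6% in Cd and 53.7% in Zn. Of 4-fold changes it called 85.9% in Zn to 92.0% in Cd. The changed genes were drawn at random from all tested genes and their number was set. These shares therefore do not give the rate for the members, which had more counts in controls than most genes. A count of 0 calls alone does not show an absence of 2-fold changes, and for the members the 95% intervals are the values to read. DESeq2 1.42.0 was an alternative. Pools are separate groups of animals per the labels. The identifiers were looked up among 38762 genes of the reference table, and 0 matched.

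The members and the rule for naming genes were chosen with earlier results of these data known. Named were members at the extremes of the Hg ratio, Hg level, Hg spread and Cu, Cd and Zn ratios and at the limits. Others named are marked as chosen after their values were seen, or stand for counts of 5 or fewer.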

Additional observations from a re-analysis of the deposited data

Results flagged for a closer look

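Among 24 control values tested (23 named members and the summed level), 1 pool stood far from the other 3. Control 3 had 4.65 CPM of v1g246859, where the other controls had 2.54 to 2.81 CPM. About 1 in 20 such groups would be picked out by chance. v1g246859 also had the lowest Cd ratio after v1g213134, 0.712, and its Cd pools had 2.25, 2.71 and 1.84 CPM.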

How the results depend on the processing

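The number of members depends on the limits: 170 with Hg at least 2-fold, 30 with Hg at least 3-fold, 28 with Cu from 0.9 to 1.1 and 181 with Cu from 0.67 to 1.5. With TMM-scaled CPM it was 59, of which 58 are among the 64. Leaving out 1 library gave 54 to 82, and 18 of the 64 were kept whichever library was left out. Without Cu 3 there were 54 (47 shared with the 64) and without Cu 2 82 (58 shared). In the 10 libraries low in the pool-variable genes there were 69 (41 shared), and with controls 1 and 2 or controls 3 and 4 alone 60 and 61 (41 and 40 shared), settings added after seeing the data.

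The counts of members called in Cu, Cd, Zn and between Cd and Zn were 0 in every alternative run, DESeq2, no filter, other scaling, fits of the 2 groups compared and left-out libraries among them, though DESeq2 gave no adjusted p for 16 members in Cd and 3 in Cu. Members called in Hg numbered 61 with only the 2 groups compared, 62 to 64 with 1 library left out and 60 in the 10 libraries. With a replicate block they numbered 62, and 0 were called in Cu, Cd or Zn. Of 30 same-numbered pairs of libraries, 7 had correlated deviations above 0.1 (range -0.27 to 0.39). Pairs with different numbers were not compared, so this does not decide whether the numbers pair the pools. Low counts limit the members with under 10 counts in a control library, 5 in all.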

Other observations

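The following 3 members chosen after their values were seen had their highest Hg level in Hg 1 and their highest Cd level in Cd 2. v1g248223 is described above. v1g240016 had 154, 96.9 and 67.2 CPM in Hg 1 to 3 and 18.9, 61.6 and 14.6 CPM in Cd 1 to 3, with 17.4, 40.1, 34.5 and 30.6 CPM in controls 1 to 4. v1g238021 had 145, 78.0 and 67.7 CPM in Hg and 22.9, 44.2 and 20.5 CPM in Cd, with 17.9, 36.0, 28.9 and 28.3 CPM in controls. Hg 1 and Cd 2 were the highest pools of their groups in 15 members. In 6 of these, the 3 genes among them, control 1 was also the lowest control and control 2 the highest. The share of all tested genes with either pattern was not counted, so nothing is read from the 15 or the 6. Hg 1 was the highest Hg pool in 34.4% of members and 42.5% of all tested genes, and Cd 2 the highest Cd pool in 51.6% and 41.6%.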
